A study of Ambystoma mexicanum with 8 samples.

Results

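Mitosis is driven by a set of genes that cells transcribe together late in the cell cycle, and 32 of them were followed here across the cell types of the axolotl limb. The members are a list of genes with a role in mitosis, matched by gene symbol to the gene models of the deposited matrix. Of the 32 listed genes 30 were found, in 44 of 61014 gene models, with some symbols carried by up to 4 models. The histone variant gene CENPA and the CDK-binding protein gene CKS2 were not found under those symbols. A model named CKS2.S held 27632 UMIs and was left out because its name did not match the list. Levels of 1 gene are sums over its models, and each fitted difference is for 1 model.

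In human and mouse cells, cyclin A2 and the B cyclins bind the kinase CDK1 and bring the cell into mitosis. Aurora and Polo-like kinases then build the spindle, and kinetochore proteins attach chromosomes to its microtubules. The spindle checkpoint holds the anaphase-promoting complex back until all chromosomes are attached, after which motor and bundling proteins divide the cell. Most of these genes are low in resting cells, so their transcripts are widely used as a sign of cycling cells. The roles given below are those known from human and mouse.

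The study compared limbs of wild-type axolotls (Ambystoma mexicanum) in a systemically activated state 14 days after amputation, labelled contra, with homeostatic limbs, labelled intact. The limbs were dissociated, live cells were sorted by DNA content, and those with 2C DNA content were profiled by droplet single-cell RNA sequencing. The protocol calls these 2C cells non-dividing, while the design text of the series calls them dividing, and the labels settle neither. Every share and difference below is for the sorted 2C cells only, and not for all cells of the limb. The labels list 4 contra and 4 intact samples. The matrix analysed here held contra samples 1, 2, 4 and 5 and intact samples 1, 2 and 4, and the intact sample numbered 5 was not analysed here. How many animals gave each sample is not stated, so a p-value here measures the spread between these samples, which may be partly technical.

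After removal of cells with a high doublet score, 34574 cells with 96526090 to 131397510 UMIs per sample remained. Marker UMIs placed 93.8% of them in 4 classes: 13432 erythroid, 9913 T, 1901 B and 7194 epidermal cells. None of the mitosis genes was among these markers. Marker sums per sample were read for the T, B and epidermal classes. T-cell markers summed to between 1418 and 1711 counts per 1000000 UMIs (CPM) in T cells and to at most 43.95 CPM in any other class, and epidermal markers to at least 41267 CPM in epidermal cells and at most 981 CPM elsewhere. B-cell markers summed to between 1548 and 8572 CPM in B cells, a wide range, and to at most 59.7 CPM in any other class. The limits used those same markers, so these sums describe the classes and do not test them. Macrophage markers, which set no limit for these classes, summed to 182 to 577 CPM in B cells. In T cells they summed to at most 57.1 CPM and in epidermal cells to at most 164 CPM. Fibroblast markers, which set no limit either, reached 391 CPM in T, 388 CPM in B and 696 CPM in epidermal cells. Muscle markers reached 124, 68.7 and 57.1 CPM in the same order. The median erythroid cell had 27873 UMIs but only 5689 that were not haemoglobin, against medians of 12314 UMIs in T, 12286 in B and 21759 in epidermal cells. Free haemoglobin, read as the median haemoglobin share of T-cell UMIs, was 0.661 to 0.930% in samples numbered 1 and 2 and 0.281 to 0.449% in those numbered 4 and 5, so differences are also given within these sets. Of 34895 barcode sequences, 118 occurred in more than 1 sample. Sample values below are listed by number, 1, 2, 4 and 5 for contra and 1, 2 and 4 for intact.

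Which cell type stood highest depended on whether haemoglobin was in the denominator. By CPM, T cells had the highest mean of 28 of the 30 genes, and B and epidermal cells of 1 each. With haemoglobin left out of the total, which gives the non-haemoglobin CPM, erythroid cells had the highest mean of 29 genes, and the exception was MKI67, which was highest in T cells. The share of cells with at least 1 UMI of a gene put T cells first for 15 genes, epidermal cells for 8, erythroid cells for 6 and B cells for 1. When each cell was thinned to 3000 UMIs, T cells came first for 25 genes, and when each was thinned to 1000 non-haemoglobin UMIs, erythroid cells came first for 27. B cells were lowest on most scales, with 18 of the 30 genes at their lowest there in non-haemoglobin CPM and the other 12 lowest in epidermal cells.

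**Figure D1:**
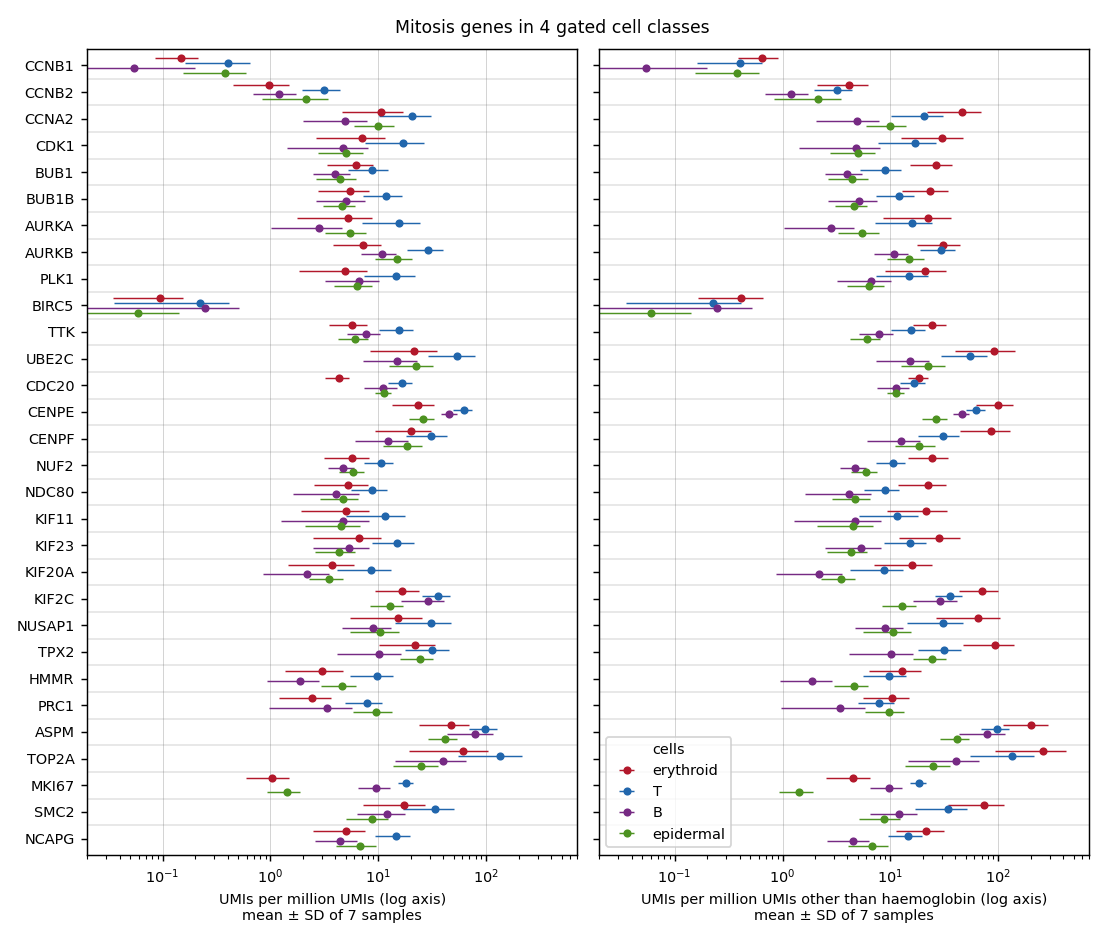
Mean level of each of the 30 mitosis genes in erythroid, T, B and epidermal cells, in CPM (left) and non-haemoglobin CPM (right), on log axes; points are means and bars SDs over 7 samples, and a bar that would reach 0 ends at the edge of the axis at 0.02. T cells lead for 28 genes on the left and erythroid cells for 29 on the right, with MKI67 the exception.

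Most single members were detected in a small share of the cells. TOP2A had at least 1 UMI in 20.7% of erythroid cells (19.98 to 21.4%), 22.04% of T cells (21.2 to 22.9%), 11.4% of B cells (9.97 to 12.9%) and 13.1% of epidermal cells (12.3 to 13.9%), with exact 95% binomial intervals that cover counting error only. Thinned to 3000 UMIs per cell, those shares were 6.76%, 10.1%, 4.31% and 4.84% in erythroid, T, B and epidermal cells. UBE2C was detected in 13.8% of erythroid cells (13.2 to 14.4%), 17.2% of T cells (16.5 to 18%), 6.42% of B cells (5.36 to 7.61%) and 16.96% of epidermal cells (16.1 to 17.8%). CCNA2 was detected in 12.1% of erythroid cells (11.6 to 12.7%), 10.5% of T cells (9.91 to 11.1%), 2.58% of B cells (1.91 to 3.39%) and 11.9% of epidermal cells (11.2 to 12.7%). B cells thus had the lowest share of all 3 of these genes. MKI67 was detected in 2.52% of erythroid cells (2.27 to 2.803%), 19.1% of T cells (18.4 to 19.9%), 9.94% of B cells (8.63 to 11.4%) and 2.77% of epidermal cells (2.4 to 3.17%), and after the same thinning in 0.298%, 4.66%, 2.52% and 0.528% of erythroid, T, B and epidermal cells. ASPM had the highest share in every class, in 35.04% of erythroid cells (34.2 to 35.9%), 45.8% of T cells (44.8 to 46.8%), 44.6% of B cells (42.3 to 46.8%) and 45.7% of epidermal cells (44.6 to 46.9%). The lowest shares were those of BIRC5 and CCNB1, each under 1% in every class.

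Sums per sample and class were then compared by edgeR's quasi-likelihood test with the sample as a block, over 24205 gene models of which 32 were member models. Its trimmed-mean scaling gave erythroid sums factors of 0.286 to 0.422 and the other sums 1.08 to 1.84, so these differences follow the non-haemoglobin scale more closely than the scale of all UMIs. At an adjusted p under 0.05, 26 member models were higher and 1 lower in erythroid than in T cells, where 31.5% of all tested models were higher and 29.9% lower, with a member median log2 difference of 0.94. The members thus stood mostly on one side, while all models were split evenly. Against B cells, 31 member models were higher and 1 lower in erythroid than in B cells, where 24.4% of all tested models were higher and 27% lower, with a member median log2 difference of 2.18. Against epidermal cells, 29 member models were higher and 0 lower in erythroid than in epidermal cells, where 34.1% of all tested models were higher and 35.2% lower, with a member median log2 difference of 1.74. On this scale erythroid cells were above each of the other classes for most members, while by CPM the erythroid mean was below the T-cell mean for all 30 genes. Between lymphocytes, 26 member models were higher and 1 lower in T than in B cells, where 19.9% of all tested models were higher and 19.1% lower, with a member median log2 difference of 1.22. T cells were also above epidermal cells for most members: 26 member models were higher and 2 lower in T than in epidermal cells, where 31.8% of all tested models were higher and 34% lower, with a member median log2 difference of 0.85. B and epidermal cells were closest to each other: 4 member models were higher and 10 lower in B than in epidermal cells, where 31.4% of all tested models were higher and 33.6% lower, with a member median log2 difference of -0.36, and the remaining 18 were not called.

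A few members went against the rest. MKI67, the proliferation antigen that coats mitotic chromosomes, was the gene lower in erythroid than in T cells (log2 -1.95 ± 0.15, edgeR adjusted p = 1.43e-12) and lower in erythroid than in B cells (log2 -1.18 ± 0.19, edgeR adjusted p = 3.23e-06). It was also far higher in T than in epidermal cells (log2 3.4 ± 0.18, edgeR adjusted p = 4.54e-17) and in B than in epidermal cells (log2 2.63 ± 0.21, edgeR adjusted p = 4.59e-12). A minor model of CENPF, AMEX60DD301025324.1, was lower in T than in B cells (log2 -1.32 ± 0.49, edgeR adjusted p = 0.0337) and lower in T than in epidermal cells (log2 -2.8 ± 0.28, edgeR adjusted p = 3.25e-10). This model held 660 of the CENPF UMIs, against 13957 in the leading model, and reads shared by models of 1 symbol could have been split between them. Its call between T and B cells was lost without the filter on low counts, with doubled marker limits, and without contra sample 1, 2 or 4 or intact sample 2 or 4. PRC1, which bundles microtubules at the spindle midzone, was lower in T than in epidermal cells (log2 -0.64 ± 0.21, edgeR adjusted p = 0.00966).

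The cyclins and their kinase are described first. CCNA2 encodes cyclin A2, which partners CDK1 at entry into mitosis. In erythroid cells CCNA2 stood at 4.18, 8.86, 15.05 and 21.5 CPM in the contra samples, against 6.08, 6.44 and 12.8 CPM in the intact samples. T cells held 9.16, 18.3, 23.2 and 31.01 CPM of CCNA2 in contra and 11.9, 12.7 and 36.2 CPM in intact samples, with the highest value in intact sample 4 and the lowest in contra sample 1. In B cells CCNA2 reached 4.74, 0.945, 3.93 and 9.47 CPM in contra and 4.21, 3.12 and 8.004 CPM in intact samples, and in epidermal cells 3.18, 7.21, 7.699 and 11.9 CPM in contra, against 14.2, 12.9 and 12.7 CPM in intact samples. Every contra sample lay below every intact sample for epidermal CCNA2, with contra sample 1 lowest, while the groups overlapped in the other 3 classes. On the non-haemoglobin scale CCNA2 averaged 45.7 ± 23.97 in erythroid cells, 20.5 ± 10.3 in T cells, 10.01 ± 4.03 in epidermal cells and 4.94 ± 2.92 in B cells (SD, n = 7 samples). For CCNA2 edgeR called all 6 pairs of classes. CDK1 is the kinase that drives that entry. CDK1 was counted at 2.26, 5.37, 11.2 and 14.6 CPM in contra erythroid samples and 3.72, 4.66 and 7.55 CPM in intact ones. The T-cell values of CDK1 were 8.7, 12.7, 20.8 and 24.8 CPM in contra and 9.795, 8.96 and 32.6 CPM in intact samples, intact sample 4 being highest and contra sample 1 lowest. B cells gave 4.93, 0.473, 3.27 and 11.4 CPM of CDK1 in contra and 3.88, 3.97 and 5.18 CPM in intact samples, and epidermal cells 2.49, 2.29, 4.01 and 7.44 CPM in contra, against 5.33, 5.29 and 7.997 CPM in intact samples. The ranges of CDK1 in the contra and intact samples crossed in every class, with contra sample 2 lowest among the epidermal samples. CDK1 averaged, in non-haemoglobin CPM, 30.1 ± 17.5 in erythroid cells, 16.99 ± 9.34 in T cells, 4.997 ± 2.23 in epidermal cells and 4.75 ± 3.32 in B cells (SD, n = 7 samples). For CDK1 edgeR called 5 of the 6 pairs of classes, the exception being B minus epidermal cells (log2 -0.1 ± 0.3, adjusted p = 0.7898).

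The B cyclins CCNB1 and CCNB2, the CDK1 partners whose destruction ends mitosis, were scarce in this matrix, with 165 and 1137 UMIs over all kept cells and 2 gene models each. Over the 7 samples CCNB1 spanned 0.145 to 0.895 CPM in T cells and 0.138 to 0.711 CPM in epidermal cells. No CCNB1 model passed the filter on low counts in the fit between classes or in the contra against intact fit of any class, and over all kept cells 1 model was tested, at log2 -0.07 ± 0.35 (edgeR unadjusted p = 0.855). CCNB2 spanned 0.437 to 1.801 CPM in erythroid, 1.899 to 4.94 in T, 0.709 to 1.96 in B and 0.553 to 4.62 in epidermal cells.

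Among the mitotic kinases and checkpoint genes, AURKB and TTK had the most UMIs. AURKB is the kinase of the chromosomal passenger complex, which corrects faulty attachments. The erythroid level of AURKB was 3.38, 6.51, 9.62 and 13.2 CPM in contra, against 4.49, 5.13 and 7.74 CPM in intact samples. Its T-cell level was 17.8, 28.4, 36.4 and 39.5 CPM in contra and 18, 20.5 and 42.4 CPM in intact samples, where intact sample 4 stood highest and contra sample 1 lowest. For B cells AURKB stood at 8.16, 7.09, 9.16 and 17.04 CPM in contra and 8.74, 9.78 and 15.1 CPM in intact samples, and for epidermal cells at 6.09, 10.9, 12.4 and 15.7 CPM in contra, against 22.9, 17.6 and 18.7 CPM in intact samples. The epidermal groups of AURKB did not overlap, with contra below intact and contra sample 1 lowest, and those of the other 3 classes did. The non-haemoglobin CPM of AURKB averaged 30.7 ± 13.1 in erythroid cells, 29.2 ± 10.5 in T cells, 14.96 ± 5.59 in epidermal cells and 10.8 ± 3.78 in B cells (SD, n = 7 samples). For AURKB edgeR called 5 of the 6 pairs of classes, the exception being erythroid minus T cells (log2 0.14 ± 0.15, adjusted p = 0.454). TTK, also called MPS1, starts spindle checkpoint signalling at unattached kinetochores. In erythroid cells TTK stood at 2.98, 5.39, 7.31 and 9.404 CPM in the contra samples, against 3.83, 4.58 and 6.36 CPM in the intact samples. T cells held 9.56, 13.6, 17.3 and 19.8 CPM of TTK in contra and 11.1, 12.2 and 24.5 CPM in intact samples, with the highest value in intact sample 4 and the lowest in contra sample 1. In B cells TTK reached 5.12, 7.56, 7.85 and 13.3 CPM in contra and 5.34, 7.65 and 7.53 CPM in intact samples, and in epidermal cells 3.597, 4.68, 4.94 and 7.21 CPM in contra, against 5.69, 8.04 and 8.49 CPM in intact samples. For TTK the contra and intact samples overlapped in all 4 classes, and the lowest epidermal value was that of contra sample 1. With haemoglobin left out TTK averaged 24.5 ± 8.42 in erythroid cells, 15.5 ± 5.34 in T cells, 7.81 ± 2.68 in B cells and 6.12 ± 1.85 in epidermal cells (SD, n = 7 samples). For TTK edgeR called 5 of the 6 pairs of classes, the exception being B minus epidermal cells (log2 0.13 ± 0.16, adjusted p = 0.507).

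AURKA, the centrosomal Aurora kinase, spanned 1.75 to 11.2 CPM in erythroid, 7.57 to 30.02 in T, 0.473 to 6.12 in B and 2.08 to 7.997 in epidermal samples. PLK1, the Polo-like kinase, spanned 1.88 to 10.2, 7.199 to 25.5, 3.88 to 13.3 and 2.91 to 8.89 CPM in the same order of classes. The checkpoint genes BUB1 and BUB1B reached 14.9 and 17.9 CPM in T cells, where each was highest. BIRC5, which encodes survivin of the passenger complex, had 88 UMIs in all and passed the filter only over all kept cells, where 1 model stood at log2 0.02 ± 0.36, contra minus intact (edgeR unadjusted p = 0.957).

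Of the anaphase-promoting complex, the list holds an activator and its ubiquitin-conjugating enzyme. UBE2C is the conjugating enzyme that primes the complex's substrates. UBE2C was counted at 6.75, 16.6, 35.04 and 43.3 CPM in contra erythroid samples and 13.3, 13.5 and 22.2 CPM in intact ones. The T-cell values of UBE2C were 28.2, 51.8, 64.2 and 68.2 CPM in contra and 35.2, 32.3 and 98.3 CPM in intact samples, intact sample 4 being highest and contra sample 1 lowest. B cells gave 14.2, 5.67, 7.85 and 19.9 CPM of UBE2C in contra and 11.3, 18 and 28.3 CPM in intact samples, and epidermal cells 8.02, 13.7, 16.6 and 26.7 CPM in contra, against 35.4, 25.8 and 29.4 CPM in intact samples. The ranges of UBE2C in the contra and intact samples crossed in every class, with contra sample 1 lowest among the epidermal samples. On the non-haemoglobin scale UBE2C averaged 92.02 ± 51.9 in erythroid cells, 54.3 ± 25.04 in T cells, 22.3 ± 9.73 in epidermal cells and 15.1 ± 7.77 in B cells (SD, n = 7 samples). For UBE2C edgeR called all 6 pairs of classes. CDC20 activates the complex at anaphase and is the target of the checkpoint. The erythroid level of CDC20 was 3.11, 3.898, 5.14 and 5.59 CPM in contra, against 2.99, 3.91 and 5.31 CPM in intact samples. Its T-cell level was 12.1, 17.7, 15.2 and 22.4 CPM in contra and 10.4, 17.6 and 19.8 CPM in intact samples, where contra sample 5 stood highest and intact sample 1 lowest. For B cells CDC20 stood at 9.68, 8.98, 10.5 and 14.2 CPM in contra and 7.604, 18.1 and 8.95 CPM in intact samples, and for epidermal cells at 7.19, 13.1, 11 and 12.2 CPM in contra, against 12.4, 10.6 and 12.1 CPM in intact samples. No class had CDC20 groups without overlap, and in epidermal cells contra sample 1 was lowest. CDC20 averaged, in non-haemoglobin CPM, 18.5 ± 3.86 in erythroid cells, 16.5 ± 4.22 in T cells, 11.3 ± 1.99 in epidermal cells and 11.2 ± 3.73 in B cells (SD, n = 7 samples). For CDC20 edgeR called 2 of the 6 pairs of classes, the exceptions being erythroid minus T cells (log2 0.26 ± 0.11, adjusted p = 0.0517), T minus B cells (log2 0.34 ± 0.14, adjusted p = 0.0552), T minus epidermal cells (log2 0.12 ± 0.12, adjusted p = 0.382) and B minus epidermal cells (log2 -0.22 ± 0.15, adjusted p = 0.188).

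At the kinetochore, CENPE and CENPF had the most UMIs. CENPE is a kinesin motor that moves chromosomes to the spindle equator. In erythroid cells CENPE stood at 12.1, 22.8, 27.01 and 40.7 CPM in the contra samples, against 12.4, 22.9 and 23.8 CPM in the intact samples. T cells held 48.9, 62.7, 74.97 and 69.6 CPM of CENPE in contra and 43.3, 59.7 and 74.9 CPM in intact samples, with the highest value in contra sample 4 and the lowest in intact sample 1. In B cells CENPE reached 35.7, 44.9, 47.1 and 57.7 CPM in contra and 37.4, 50.9 and 44.7 CPM in intact samples, and in epidermal cells 13, 23.5, 25.8 and 29.2 CPM in contra, against 26.3, 32.4 and 33.3 CPM in intact samples. For CENPE the contra and intact samples overlapped in all 4 classes, and the lowest epidermal value was that of contra sample 1. The non-haemoglobin CPM of CENPE averaged 99.1 ± 36.9 in erythroid cells, 62.4 ± 12.3 in T cells, 45.8 ± 7.56 in B cells and 26.3 ± 6.83 in epidermal cells (SD, n = 7 samples). For CENPE edgeR called 5 of the 6 pairs of classes, the exception being T minus B cells (log2 0.31 ± 0.13, adjusted p = 0.0566). CENPF is a large protein of the outer kinetochore. CENPF was counted at 8.76, 17.6, 26.3 and 40.1 CPM in contra erythroid samples and 10.3, 15.7 and 21.6 CPM in intact ones, as a sum over 4 gene models. The T-cell values of CENPF were 16.3, 30.6, 37.3 and 41.7 CPM in contra and 16.7, 22.8 and 48.8 CPM in intact samples, intact sample 4 being highest and contra sample 1 lowest. B cells gave 10.6, 5.67, 10.5 and 25.6 CPM of CENPF in contra and 9.71, 10.5 and 14.1 CPM in intact samples, and epidermal cells 5.67, 13.04, 15.3 and 20.8 CPM in contra, against 24.2, 23.9 and 25.4 CPM in intact samples. In epidermal cells all 4 contra values of CENPF were below all 3 intact values and contra sample 1 was lowest, while the other 3 classes overlapped. With haemoglobin left out CENPF averaged 85.7 ± 41.6 in erythroid cells, 30.8 ± 12.6 in T cells, 18.4 ± 7.31 in epidermal cells and 12.5 ± 6.33 in B cells (SD, n = 7 samples). For CENPF edgeR called all 6 pairs of classes for the model with the most UMIs.

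NDC80 and NUF2 encode subunits of the complex that grips microtubules at the outer kinetochore. NDC80 spanned 2.61 to 10.3 CPM in erythroid, 5.76 to 14.4 in T, 2.41 to 9.47 in B and 2.49 to 6.82 in epidermal samples. NUF2 spanned 2.71 to 9.62, 7.51 to 15.95, 2.62 to 6.63 and 3.04 to 7.06 CPM in the same order of classes. The highest single sample of both genes was one of T cells on this scale.

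Of the 9 motor and spindle genes, ASPM and TPX2 had the most UMIs. ASPM focuses spindle poles. The erythroid level of ASPM was 24.9, 39.3, 57.9 and 89.9 CPM in contra, against 24.8, 35.6 and 54.97 CPM in intact samples. Its T-cell level was 58.5, 117, 98.8 and 134 CPM in contra and 62.9, 94.7 and 113 CPM in intact samples, where contra sample 5 stood highest and contra sample 1 lowest. For B cells ASPM stood at 47.4, 78.9, 61.5 and 151 CPM in contra and 52.9, 94.5 and 64.98 CPM in intact samples, and for epidermal cells at 17.6, 48.9, 37.2 and 52.9 CPM in contra, against 34.5, 49.9 and 47.02 CPM in intact samples. No class had ASPM groups without overlap, and in epidermal cells contra sample 1 was lowest. On the non-haemoglobin scale ASPM averaged 200 ± 88.5 in erythroid cells, 97.6 ± 27.99 in T cells, 79.3 ± 35.9 in B cells and 41.3 ± 12.5 in epidermal cells (SD, n = 7 samples). For ASPM edgeR called 5 of the 6 pairs of classes, the exception being T minus B cells (log2 0.21 ± 0.12, adjusted p = 0.161). TPX2 activates AURKA and nucleates spindle microtubules. In erythroid cells TPX2 stood at 8.49, 18.7, 30.1 and 42.6 CPM in the contra samples, against 10.6, 17.6 and 25.2 CPM in the intact samples, as a sum over 3 gene models. T cells held 17.6, 29.8, 40.5 and 44.6 CPM of TPX2 in contra and 17.4, 20.1 and 49.05 CPM in intact samples, with the highest value in intact sample 4 and the lowest in intact sample 1. In B cells TPX2 reached 7.02, 1.89, 9.81 and 21.8 CPM in contra and 8.41, 10.6 and 11.3 CPM in intact samples, and in epidermal cells 8.85, 19.7, 23.3 and 25.1 CPM in contra, against 29.9, 33.4 and 28.97 CPM in intact samples. Every contra sample lay below every intact sample for epidermal TPX2, with contra sample 1 lowest, while the groups overlapped in the other 3 classes. TPX2 averaged, in non-haemoglobin CPM, 93.6 ± 46.2 in erythroid cells, 31.5 ± 13.5 in T cells, 24.3 ± 8.17 in epidermal cells and 10.2 ± 6.05 in B cells (SD, n = 7 samples). For TPX2 edgeR called 5 of the 6 pairs of classes for the model with the most UMIs, the exception being T minus epidermal cells (log2 -0.05 ± 0.19, adjusted p = 0.841).

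KIF11 is the kinesin that pushes spindle poles apart, KIF23 and KIF20A are the central spindle kinesins of cell division, and KIF2C takes microtubules apart. In T cells the means over 7 samples were 11.4 ± 6.38 CPM for KIF11, 14.96 ± 6.31 CPM for KIF23, 8.59 ± 4.41 CPM for KIF20A and 35.7 ± 10.2 CPM for KIF2C. NUSAP1 binds spindle microtubules, PRC1 bundles them at the midzone, and HMMR is a spindle pole protein; they averaged 30.5 ± 16.3 CPM for NUSAP1, 7.88 ± 2.92 CPM for PRC1 and 9.64 ± 4.13 CPM for HMMR in T cells. In epidermal cells the same genes averaged 4.46 ± 2.37 CPM for KIF11, 4.304 ± 1.72 CPM for KIF23, 3.47 ± 1.196 CPM for KIF20A, 12.7 ± 4.37 CPM for KIF2C, 10.5 ± 4.94 CPM for NUSAP1, 9.6 ± 3.75 CPM for PRC1 and 4.604 ± 1.64 CPM for HMMR. PRC1 was thus the one of these 7 whose mean was higher in epidermal than in T cells.

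Of the chromosome structure genes, TOP2A and SMC2 had the most UMIs. TOP2A encodes topoisomerase II alpha, which untangles sister DNA. TOP2A was counted at 19.6, 39.9, 90.1 and 136 CPM in contra erythroid samples and 26.7, 37.9 and 80.2 CPM in intact ones. The T-cell values of TOP2A were 58.4, 94.1, 190.2 and 194 CPM in contra and 74.1, 67.9 and 259.6 CPM in intact samples, intact sample 4 being highest and contra sample 1 lowest. B cells gave 31.9, 7.56, 35.3 and 84.2 CPM of TOP2A in contra and 26.7, 30.3 and 63.6 CPM in intact samples, and epidermal cells 7.33, 15.8, 25.5 and 37.5 CPM in contra, against 28.3, 21.4 and 37.1 CPM in intact samples. The ranges of TOP2A in the contra and intact samples crossed in every class, with contra sample 1 lowest among the epidermal samples. The non-haemoglobin CPM of TOP2A averaged 261 ± 167 in erythroid cells, 135 ± 79.5 in T cells, 40.2 ± 25.7 in B cells and 24.8 ± 10.99 in epidermal cells (SD, n = 7 samples). For TOP2A edgeR called 5 of the 6 pairs of classes, the exception being B minus epidermal cells (log2 0.45 ± 0.23, adjusted p = 0.0901). SMC2 is a core subunit of condensin, which compacts chromosomes. The erythroid level of SMC2 was 6.74, 14.7, 22.9 and 36 CPM in contra, against 8.72, 12.4 and 18.5 CPM in intact samples. Its T-cell level was 16.5, 32.3, 41.8 and 50.4 CPM in contra and 15.6, 21.2 and 58.2 CPM in intact samples, where intact sample 4 stood highest and intact sample 1 lowest. For B cells SMC2 stood at 12.7, 5.67, 9.81 and 21.8 CPM in contra and 10.03, 7.23 and 16.5 CPM in intact samples, and for epidermal cells at 4.01, 5.97, 7.37 and 10.95 CPM in contra, against 7.46, 9.94 and 14.98 CPM in intact samples. No class had SMC2 groups without overlap, and in epidermal cells contra sample 1 was lowest. With haemoglobin left out SMC2 averaged 73.1 ± 38.9 in erythroid cells, 33.9 ± 16.98 in T cells, 12.03 ± 5.61 in B cells and 8.702 ± 3.63 in epidermal cells (SD, n = 7 samples). For SMC2 edgeR called 5 of the 6 pairs of classes, the exception being B minus epidermal cells (log2 0.35 ± 0.23, adjusted p = 0.193).

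NCAPG, another condensin subunit, spanned 1.805 to 8.396 CPM in erythroid, 8.63 to 20.9 in T, 2.84 to 8.52 in B and 1.94 to 10.7 in epidermal samples. MKI67 spanned 0.575 to 1.65 CPM in erythroid, 12.7 to 20.7 in T, 7.28 to 16.5 in B and 0.983 to 2.33 in epidermal samples. The lymphocyte samples of MKI67 lay wholly above the erythroid and epidermal ones.

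The make-up of the mitotic transcripts, taken as each gene's share of the UMIs of all 30 members and averaged over 7 samples, differed between the classes. TOP2A made up 16.9% ± 2.89 in erythroid cells, 16.4% ± 3.74 in T cells, 10.7% ± 4.16 in B cells and 7.86% ± 1.87 in epidermal cells (SD). MKI67 made up 0.354% ± 0.168 in erythroid cells, 2.598% ± 0.737 in T cells, 3.06% ± 1.61 in B cells and 0.518% ± 0.277 in epidermal cells. TOP2A was thus a smaller part of the epidermal than of the erythroid or T-cell mix, and MKI67 a larger part of both lymphocyte mixes. PRC1 took 0.726% ± 0.0539 in erythroid cells, 1.05% ± 0.104 in T cells, 0.933% ± 0.561 in B cells and 3.15% ± 0.565 in epidermal cells. AURKB took 2.19% ± 0.225 in erythroid cells, 3.83% ± 0.199 in T cells, 3.08% ± 0.3799 in B cells and 4.86% ± 0.685 in epidermal cells. CDC20 took 1.45% ± 0.431 in erythroid cells, 2.29% ± 0.566 in T cells, 3.31% ± 0.961 in B cells and 3.98% ± 1.12 in epidermal cells. All 3 of these had their highest mean share in epidermal cells, although for CDC20 the B-cell mean lay within 1 SD of it. SMC2 went the other way, with 4.99% ± 0.281 in erythroid cells, 4.23% ± 0.568 in T cells, 3.399% ± 0.972 in B cells and 2.84% ± 0.5395 in epidermal cells. Grouped by role, chromosome structure genes took 23.8% ± 2.82 in erythroid, 25.2% ± 3.35 in T, 18.5% ± 3.62 in B and 13.4% ± 1.87 in epidermal cells. Motors and spindle genes took 36.2% ± 1.39 in erythroid, 32.7% ± 2.72 in T, 40.6% ± 4.92 in B and 38% ± 2.76 in epidermal cells. The kinases and checkpoint genes took 10.4% ± 0.688 in erythroid, 12.4% ± 0.381 in T, 10.6% ± 1.22 in B and 13.7% ± 0.9499 in epidermal cells, and the anaphase-promoting complex pair took 7.63% ± 0.884 in erythroid, 9.23% ± 0.529 in T, 7.57% ± 1.804 in B and 11.1% ± 1.15 in epidermal cells. These shares are descriptions without a test, and a shift in 1 abundant gene moves all the others.

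**Figure D2:**
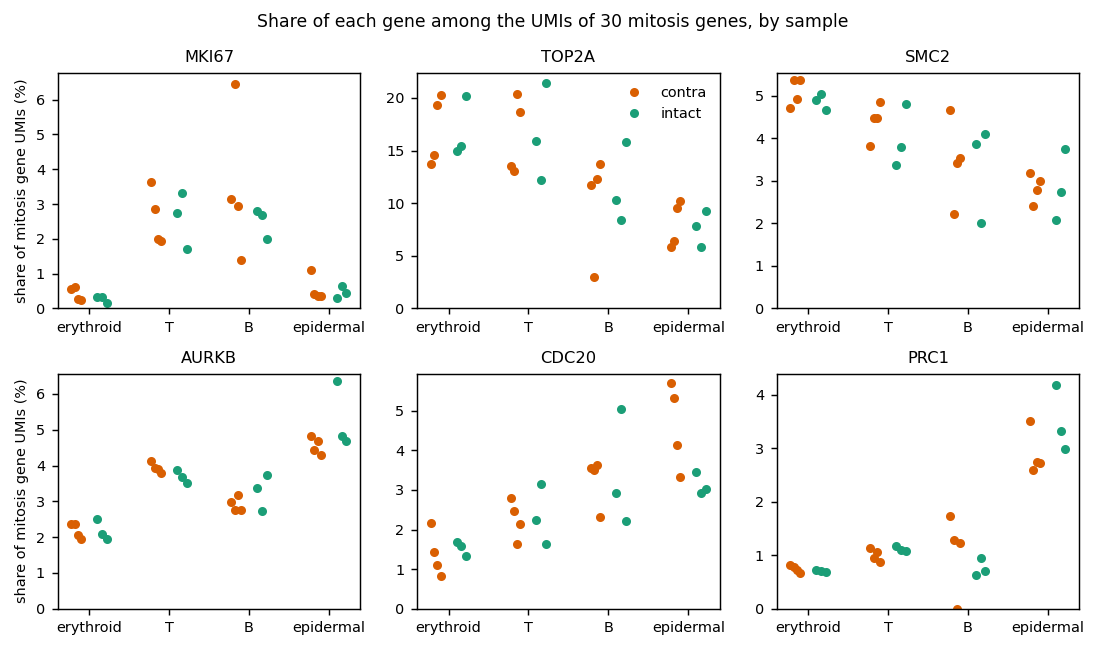
Share of single genes among the UMIs of the 30 mitosis genes, one point per sample, in erythroid, T, B and epidermal cells; each panel is 1 gene with its own axis starting at 0. MKI67 averages 2.60% in T and 3.06% in B cells, against 0.354% in erythroid and 0.518% in epidermal cells.

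Within each class a minority of cells, picked by their number of members, held most of the member UMIs. Cells with UMIs of at least 5 different members numbered 2596 of 13432 erythroid (19.3%), 2145 of 9913 T (21.6%), 190 of 1901 B (9.99%) and 1576 of 7194 epidermal cells (21.9%). They held 89.5% of all member UMIs in erythroid cells, 83.3% in T, 58.4% in B and 77.5% in epidermal cells. The same UMIs picked these cells, so high values were partly fixed by the choice, and no other gene list was set beside them. These cells were also deeper, with medians of 41842.5, 20756, 19968 and 24567.5 UMIs in erythroid, T, B and epidermal cells. Cells with under 5 members had medians of 25445, 11221.5, 11903 and 20923.5 UMIs. Single cells carried UMIs of up to 28 members. The limit of 5 cuts a range, with 390, 722, 128 and 584 cells at exactly 4 members and 281, 363, 78 and 339 at exactly 5, in erythroid, T, B and epidermal cells in that order. At least 10 members were seen in 13.01% of erythroid, 11.97% of T, 2.89% of B and 10.2% of epidermal cells.

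The members separated into genes that marked these cells and genes that were also seen elsewhere. TOP2A was found in 80.7% of erythroid cells that carried 5 or more other members and in 3.65% of those that carried none. UBE2C was found in 51.5% of T cells that carried 5 or more other members and in 6.06% of those that carried none. MKI67 behaved differently by class: among cells with 5 or more other members it was present in 5.45% of erythroid, 36.5% of T, 17.6% of B and 3.99% of epidermal cells. Deep cells are more likely to pass that limit, so these shares also carry depth. ASPM and CENPE were the members most often seen in cells with no other member in each class, followed by KIF2C in all but T cells, where MKI67 came before it. In such cells ASPM was present in 17.5% of erythroid, 27.4% of T, 31.5% of B and 30.4% of epidermal cells. CENPE was present in 11.4% of erythroid, 27.6% of T, 25.9% of B and 17.3% of epidermal cells. KIF2C was present in 6.35% of erythroid, 11.5% of T, 10.9% of B and 12.3% of epidermal cells. MKI67 was present in 1.32% of erythroid, 11.8% of T, 6.91% of B and 1.65% of epidermal cells.

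Free RNA in the droplets can place a UMI in a cell that does not express the gene, and 108 cells with neutrophil markers, a type not expected to divide, were set beside the classes, with 46 and 37 of them in contra samples 4 and 5. Their median depth was 6808 UMIs, below that of all 4 classes. No such cell had 5 or more members, 12 of the 30 genes had no UMI in them, which by the limit of 3 cells allows a share with a UMI of up to 2.78%, and 14 genes were seen in 1 to 3 cells. ASPM was found in 34.3% of them (25.4 to 44.01%), KIF2C in 14.8% (8.71 to 22.9%), CENPE in 13.9% (7.99 to 21.9%) and CDC20 in 5.56% (2.07 to 11.7%), with exact 95% binomial intervals. These shares are over all 108 cells, with or without other members, so the comparison with cells that hold no other member is not like for like. The ASPM share in cells with no other member, given above, was below the neutrophil-marker share of ASPM in each of the 4 classes, so no expression is read from it. Whether the neutrophil-marker cells transcribe ASPM themselves was not tested. For KIF2C the share in cells with no other member was likewise below the neutrophil-marker share in every class, while for CENPE it lay on either side of it. Other cells gave higher levels than the neutrophil-marker cells. Of 5088 erythroid cells with at least 80% haemoglobin, 7.90% had 5 or more members, 2.45 to 13.4% by sample. Of 444 cells with macrophage markers, 15.99% did. Free RNA and expression in these cells were not told apart.

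DNA replication genes, a separate list of 37 found genes that act in S phase, were set beside the members cell by cell. In cells with UMIs of 0, 1 to 2, 3 to 4, 5 to 9 and 10 or more members, their UMIs per 10000 non-haemoglobin UMIs were 5.01, 7.73, 17.1, 28.5 and 34.02 in erythroid cells and 4.25, 5.35, 7.34, 13.2 and 25.7 in T cells. In B cells they were 3.36, 4.39, 6.53, 11.4 and 20.6 and in epidermal cells 3.68, 4.61, 6.58, 9.997 and 14.5. The replication UMIs thus increased at each step with the number of mitosis genes in the cell, in all 4 classes. Median depth increased along the same steps, to 43361 UMIs in erythroid cells with 10 or more members against 22113 in those with none, and its part in this was not tested.

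Amphibian red cells keep their nucleus, and the erythroid class spanned a wide range of haemoglobin content. Sorted by the haemoglobin share of the cell's UMIs into 30 to 50, 50 to 60, 60 to 70, 70 to 75, 75 to 80, 80 to 85 and over 85%, the member UMIs per 10000 non-haemoglobin UMIs were 5.13, 7.65, 19.4, 21.3, 13.4, 5.95 and 3.15. Cells with 5 or more members made up 6.395, 8.92, 29.04, 39.1, 24.3, 8.74 and 3.99% of these bins. The members were thus highest between 60 and 80% haemoglobin, in each of the 7 samples for the share of cells with 5 or more. TOP2A followed the same course, at 57.7, 134, 352, 397, 229.8, 83.5 and 30.5 non-haemoglobin CPM over the 7 bins. MKI67 did not, at 6.08, 4.71, 4.96, 4.301, 5.08, 3.003 and 2.33. Median non-haemoglobin depth was itself highest in the bin from 70 to 75%, at 7512 UMIs, against 4492 in the bin over 85%. After thinning to 1000 non-haemoglobin UMIs, the share of cells with any member UMI was 21.3, 17.5, 35.5, 44.8, 35.6, 22.7 and 15.96% over the same bins.

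**Figure D3:**
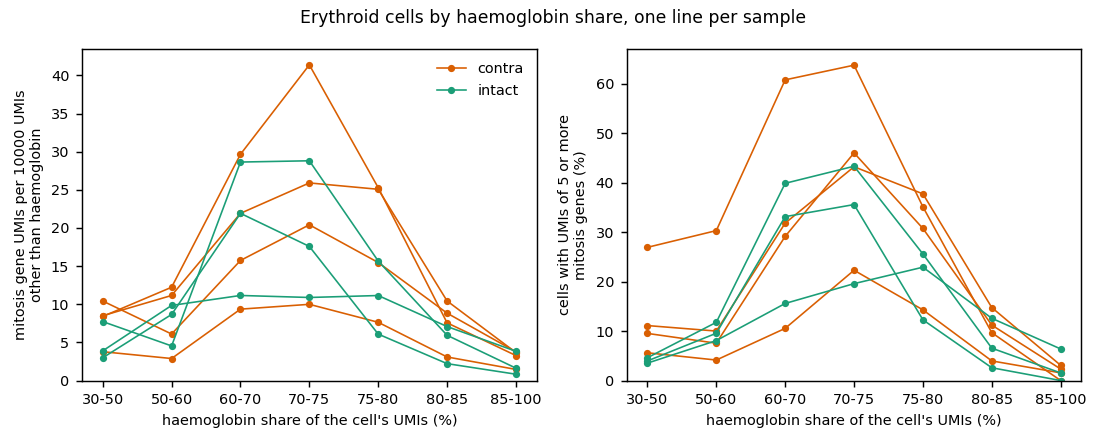
Erythroid cells in 7 bins of the haemoglobin share of their UMIs, one line per sample, contra and intact in different colours: share of cells with 5 or more mitosis genes and UMIs of the 30 genes per 10000 non-haemoglobin UMIs. Each line has its highest share of cells with 5 or more between 60 and 80% haemoglobin.

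A smaller share of the sorted 2C epidermal cells held UMIs of several members in contra than in intact limbs. Nearly every member was fitted lower, but no single member passed the adjusted test. The groups overlapped in the summed level of the members. The comparison asks whether cells of systemically activated limbs differ in their division genes from cells of homeostatic limbs. Cells with 5 or more members made up 8.24, 19.2, 16.3 and 19.6% of epidermal cells in the contra samples, against 34.3, 35.7 and 33.1% in the intact samples. Every contra sample lay below every intact sample, and contra sample 1 was the lowest. Summed over all epidermal cells, the members took 1.26, 2.47, 2.66 and 3.66 UMIs per 10000 in contra and 3.61, 3.63 and 4.001 in intact samples, and contra sample 5 lay above intact samples 1 and 2. The mean shares were 15.8% ± 5.27 over 4 contra samples and 34.3% ± 1.302 over 3 intact samples (SD), a difference of -18.5 percentage points. The difference was -21.3 points within samples 1 and 2, -15.1 within samples 4 and 5, and between -19.8 and -15.97 when any 1 sample was left out. A count over the members gets no p-value here.

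Depth moved with the groups. Median UMIs per epidermal cell were 17460 to 26302 in contra and 25369 to 32349 in intact samples, and the epidermal cells numbered 267, 896, 1567 and 2644 in contra and 204, 143 and 1473 in intact samples. With every cell thinned to 10000 UMIs, cells with 5 or more members made up 3.09, 8.78, 8.84 and 13.4% in contra, against 19, 15.7 and 17.1% in intact samples. The groups still did not overlap, and the difference was -8.74 points. With every cell thinned to 3000 UMIs the shares were 1.12, 2.57, 3.32 and 4.46% in contra and 5.88, 4.196 and 5.36% in intact samples, and the groups overlapped. Shallower cells were left out of the thinning to 10000 UMIs, between 1.56 and 5.37% of a sample.

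**Figure D4:**
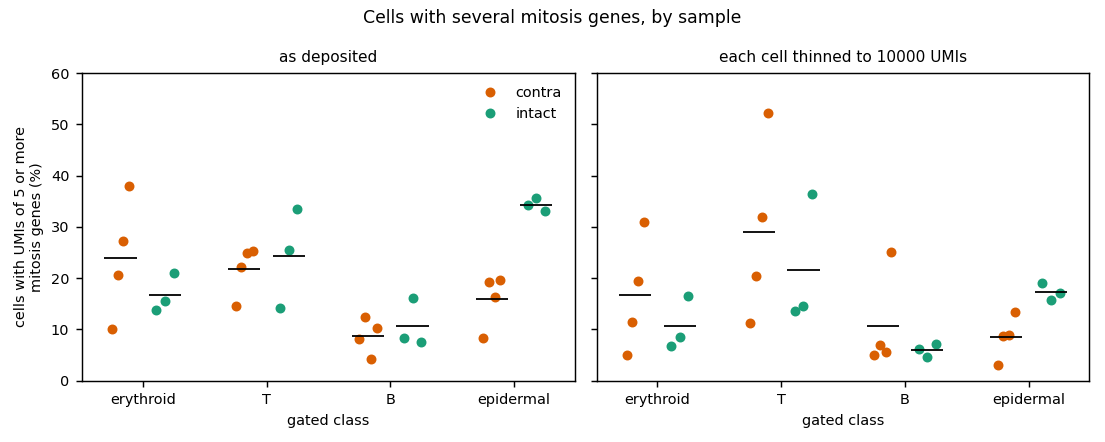
Share of cells with UMIs of 5 or more mitosis genes in erythroid, T, B and epidermal cells, as deposited (left) and with each cell thinned to 10000 UMIs (right); each point is 1 sample, contra left of intact, and lines are group means. In epidermal cells the contra samples lie at 8.24 to 19.6% and the intact samples at 33.1 to 35.7% as deposited, and the other 3 classes overlap.

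Within the cells with 5 or more members, the members took 6.83, 8.18, 10.5 and 12.1 UMIs per 10000 in contra and 8.78, 7.48 and 9.38 in intact samples, and the groups overlapped. Cells with under 5 members held 0.657, 1.004, 0.893 and 1.12 in contra and 0.855, 0.958 and 0.954 in intact samples, with overlap too. The summed level of the 21 epidermal markers moved with the groups, at 53962 to 58902 CPM in contra and 41267 to 48425 CPM in intact samples. Of those 21 markers 3 were higher in every contra than in every intact sample, 1 was lower and 17 overlapped. The fibroblast and muscle marker sums of epidermal cells overlapped between the groups. The part of these differences in the members' levels was not tested.

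In the edgeR quasi-likelihood fit of epidermal sums, 31 member models passed the filter on low counts, of 20960 models tested. None was called at an adjusted p under 0.05, where 0% of all models were called, and the lowest adjusted p of a member was 0.422. Of the 31, 30 were fitted lower in contra, where 50.4% of all models were, and 16 were lower at an unadjusted p under 0.05, where 5.02% of all models were. The members are transcribed together and were read from the same samples. Counts of members, here and elsewhere, are thus not counts of independent results. The median log2 difference of the members was -0.62, against 0.00 over all models. By CPM, 9 member models, 1 each of PRC1, CCNB2, NUSAP1, AURKB, TPX2, CENPF, CCNA2, NCAPG and NDC80, were lower in every contra than in every intact sample, where 5.14% of all models were. A fit with same-numbered samples as a block left out contra sample 5, which had no intact partner, and tested 18140 models. Its results thus differ from those above in the samples used as well as in the block. In it 26 members were lower at an unadjusted p under 0.05, where 9.26% of all models were. That block called none at the adjusted threshold, with a lowest adjusted p of 0.0577 and a median of -0.88, where 0.424% of all models were called. DESeq2 called none as well, where it called 0.348% of all models, and it gave 15 members at an unadjusted p under 0.05, where 4.17% of all models were. Without the filter on low counts, edgeR called 4 members lower, where 0.726% of all models were called. These were 1 model each of PRC1, NUSAP1, UBE2C and CENPF, with adjusted p-values of 0.0401, 0.0254, 0.00598 and 0.005404. For NUSAP1 it was the model with fewer UMIs.

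The epidermal members with an unadjusted p under 0.05 came from each role group, and their adjusted p-values in edgeR lay between 0.422 and 0.574. Of the cyclins, CCNA2, whose sample values are given above, was fitted at log2 -0.78 ± 0.28 (unadjusted p = 0.0191). CCNB2 is a partner of CDK1. CCNB2 stood at 0.553, 1.62, 1.37 and 1.66 CPM in contra, against 4.62, 2.33 and 2.81 CPM in intact epidermal samples, summed over 2 models. edgeR fitted CCNB2 at log2 -1.53 ± 0.36 (SE) for model AMEX60DD201004086.3, with an unadjusted p of 0.00154; contra lay below intact in every sample. Its other model gave log2 -1.06 ± 0.39, with an unadjusted p of 0.0212. CDK1 itself was fitted at log2 -0.62 ± 0.36 (unadjusted p = 0.116), and its groups overlapped.

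Of the kinases, AURKB was fitted at log2 -0.79 ± 0.24 (unadjusted p = 0.00727) and TTK at log2 -0.53 ± 0.21 (unadjusted p = 0.0322). AURKA acts at the spindle poles. AURKA stood at 2.08, 3.104, 4.56 and 7.19 CPM in contra, against 7.997, 6.35 and 7.16 CPM in intact epidermal samples. edgeR fitted AURKA at log2 -0.71 ± 0.32 (SE), with an unadjusted p of 0.04898; the groups overlapped. BUB1 recruits checkpoint proteins to the kinetochore. BUB1 stood at 1.798, 2.82, 3.44 and 5.297 CPM in contra, against 5.15, 5.29 and 6.98 CPM in intact epidermal samples. edgeR fitted BUB1 at log2 -0.78 ± 0.28 (SE), with an unadjusted p of 0.0177; the groups overlapped. BUB1B, also called BUBR1, is part of the checkpoint complex that binds CDC20. BUB1B stood at 2.21, 4.06, 3.11 and 5.696 CPM in contra, against 5.51, 5.08 and 6.46 CPM in intact epidermal samples. edgeR fitted BUB1B at log2 -0.59 ± 0.25 (SE), with an unadjusted p of 0.0387; the groups overlapped. PLK1, which acts beside them, was fitted at log2 -0.44 ± 0.3 (unadjusted p = 0.172).

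At the kinetochore, CENPF was fitted at log2 -0.92 ± 0.33 (unadjusted p = 0.0171) for its leading model, and CENPE at log2 -0.41 ± 0.2 (unadjusted p = 0.0662). The minor CENPF model AMEX60DD301025324.1 was fitted at log2 0.09 ± 0.25 (edgeR unadjusted p = 0.729). It was the only member model fitted higher in contra in epidermal cells. NDC80 had the smallest unadjusted p of all members. NDC80 stood at 2.49, 2.72, 3.66 and 4.35 CPM in contra, against 6.04, 6.56 and 6.82 CPM in intact epidermal samples, summed over 2 models. edgeR fitted NDC80 at log2 -0.94 ± 0.21 (SE) for its leading model, with an unadjusted p of 0.00113; contra lay below intact in every sample. Its partner NUF2 was fitted at log2 -0.4 ± 0.23 (unadjusted p = 0.114). In the anaphase-promoting complex, UBE2C was fitted at log2 -0.89 ± 0.29 (unadjusted p = 0.0109). CDC20 stood close to no difference, at log2 -0.11 ± 0.18 (unadjusted p = 0.572).

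Among the spindle genes, TPX2 was fitted at log2 -0.66 ± 0.25 (unadjusted p = 0.0252) for its leading model. KIF11 pushes the poles apart. KIF11 stood at 2.08, 2.58, 3.41 and 4.603 CPM in contra, against 8.71, 3.39 and 6.49 CPM in intact epidermal samples, summed over 2 models. edgeR fitted KIF11 at log2 -0.99 ± 0.33 (SE) for its leading model, with an unadjusted p of 0.0131; the groups overlapped in the sum. NUSAP1 binds spindle microtubules near chromatin. NUSAP1 stood at 3.32, 5.78, 8.68 and 13.5 CPM in contra, against 13.5, 10.8 and 17.7 CPM in intact epidermal samples, summed over 2 models. edgeR fitted NUSAP1 at log2 -1.09 ± 0.29 (SE) for model AMEX60DD301011911.1, with an unadjusted p of 0.00343, and the groups overlapped in the sum. That model held 34.7% of the epidermal NUSAP1 UMIs. The leading model, with 65.3% of them, was fitted by edgeR at log2 -0.66 ± 0.39, with an unadjusted p of 0.119. PRC1 bundles microtubules at the midzone. PRC1 stood at 4.43, 6.4, 7.29 and 9.96 CPM in contra, against 15.1, 12.1 and 11.96 CPM in intact epidermal samples, summed over 2 models. edgeR fitted PRC1 at log2 -0.87 ± 0.23 (SE) for its leading model, with an unadjusted p of 0.00316; contra lay below intact in every sample. ASPM was near no difference, at log2 -0.17 ± 0.26 (unadjusted p = 0.534), and it is the gene whose UMIs were most often seen in epidermal cells with no other member. Of the chromosome structure genes, SMC2 was fitted at log2 -0.62 ± 0.29 (unadjusted p = 0.0531), TOP2A at log2 -0.44 ± 0.39 (unadjusted p = 0.283) and MKI67 at log2 -0.55 ± 0.3 (unadjusted p = 0.0946). NCAPG is a condensin subunit. NCAPG stood at 1.94, 5.49, 5.98 and 6.89 CPM in contra, against 10.7, 8.67 and 7.94 CPM in intact epidermal samples. edgeR fitted NCAPG at log2 -0.77 ± 0.29 (SE), with an unadjusted p of 0.0234; contra lay below intact in every sample.

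**Figure D5:**
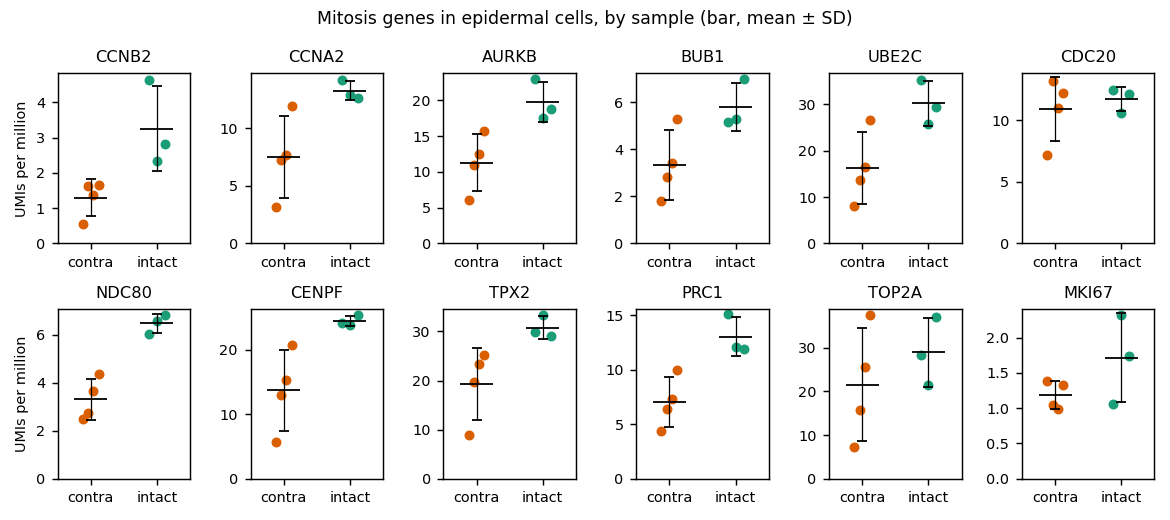
Level of single mitosis genes in epidermal cells, in CPM, one point per sample with contra left of intact, bars at mean ± SD; each panel is 1 gene with its own axis starting at 0. Contra lies below intact in every sample for some genes, such as NDC80 and PRC1, while CDC20 and MKI67 overlap.

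The share of epidermal cells with a UMI of a gene followed the same pattern. As deposited, 24 of 31 member models had a lower share in every contra than in every intact sample, where 16.9% of all models did. After thinning to 10000 UMIs, 11 of 31 did, where 4.76% of all models did. These 11 were models of PRC1, CCNB2, TOP2A, NUSAP1, AURKB, TPX2, BUB1, CENPF, CCNA2, NCAPG and NDC80. TOP2A was then found in 4.25, 6.24, 6.82 and 9.67% of contra and 10, 11.4 and 11.9% of intact epidermal cells. NDC80 was found in 2.32, 2.66, 3.05 and 3.84% of contra and 5, 4.29 and 6.21% of intact epidermal cells. The mean thinned share was lower in contra for 30 of 31 models, where 52% of all models were lower. Whether fewer cells carried a transcript or each cell carried less cannot be told apart from these counts alone.

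Other genes of the same processes were read from the same epidermal fit. Over all models of that fit, 50.4% were fitted lower in contra and 5.02% were lower at an unadjusted p under 0.05. Of a list of 73 further mitosis genes 67 were found, and 72 of their 76 tested models were fitted lower in contra, 25 at an unadjusted p under 0.05, with a median log2 difference of -0.46. The 3 with the most UMIs were CDC25B, a phosphatase that activates CDK1, at log2 0.07 ± 0.17, NCAPG2, a condensin subunit, at -0.15 ± 0.23, and ANLN, which acts in the cleavage furrow, at -0.29 ± 0.26, -0.93 ± 0.37 and -0.39 ± 0.4 for its models. Of 40 DNA replication genes 37 were found, and 40 of 41 models were fitted lower, 10 at an unadjusted p under 0.05, with a median of -0.38. Among these, RRM1, which makes DNA precursors, stood at log2 -0.38 ± 0.21, POLD1, a replicative polymerase, at -0.04 ± 0.27 and -0.36 ± 0.25, and LIG1, which joins nascent strands, at -0.15 ± 0.19. A further list of 16 genes held genes linked to leaving the cycle and also the G1 drivers CCND1, CCND2, CCND3, CDK4 and CDK6. Of these 16 genes 14 were found, and 12 of 17 models were lower, with a median of -0.09. The count and median pool both kinds of gene and do not describe leaving the cycle alone. BTG1, an antiproliferative gene, stood at 0.31 ± 0.18 and 0.16 ± 0.17, CCND1, a G1 cyclin, at 0.02 ± 0.18, and RBL2, a pocket protein, at 0.07 ± 0.21. No model of these 3 lists was called in that fit, where 0% of all models were. The fit with same-numbered samples as a block, which left out contra sample 5, called 0.424% of all models. The fit without the filter on low counts called 0.726%. Named after their values were seen, the models called by edgeR with same-numbered samples as a block, all lower in contra, were those of FEN1, a flap endonuclease of lagging-strand synthesis (log2 -0.94 ± 0.12, adjusted p = 0.0342), CLSPN, claspin of the replication checkpoint (log2 -1.06 ± 0.16, adjusted p = 0.0464), DLGAP5, a spindle protein (log2 -1.24 ± 0.18, adjusted p = 0.0464) and TK1, thymidine kinase (log2 -1.1 ± 0.15, adjusted p = 0.0344). Without the filter on low counts edgeR called DLGAP5 (log2 -0.83 ± 0.22, adjusted p = 0.0263) and CDKN1A, the CDK inhibitor p21 (log2 -0.92 ± 0.2, adjusted p = 0.000942) and KIF22, a chromosome-binding kinesin (log2 -0.88 ± 0.24, adjusted p = 0.0399), also lower in contra.

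The contra minus intact difference was then compared between classes in one edgeR fit with the sample as a block, an analysis added after the data were seen. It called no member, and no other model, in any pair given here. Against erythroid cells, 32 of 32 member models had the lower contra minus intact difference in epidermal cells, where 44.8% of all models did, 24 at an unadjusted p under 0.05, where 4.23% did, with a median log2 difference of -0.88 and a lowest adjusted p of 0.163. Against T cells, 31 of 32 member models had the lower contra minus intact difference in epidermal cells, where 42.1% of all models did, 15 at an unadjusted p under 0.05, where 1.83% did, with a median log2 difference of -0.7 and a lowest adjusted p of 0.734. These pairs and the next hold the same epidermal difference, so a direction common to them is not separate evidence. Against B cells, 30 of 32 member models had the lower contra minus intact difference in epidermal cells, where 40.6% of all models did, 5 at an unadjusted p under 0.05, where 1.64% did, with a median log2 difference of -0.55 and a lowest adjusted p of 0.706. Between erythroid and T cells, a pair without epidermal cells, 29 of 32 member models had the higher difference in erythroid cells. Of all models 12422 of 24205 did, and the member median log2 difference was 0.23. In that pair edgeR gave 1 member model higher at an unadjusted p under 0.05, where 397 of 24205 models were.

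In erythroid cells the members leaned the other way, with overlapping groups. Cells with 5 or more members made up 9.99, 20.6, 27.3 and 38.1% of erythroid cells in contra and 13.8, 15.5 and 21.02% in intact samples, or 23.97% ± 11.8 over 4 contra samples and 16.8% ± 3.78 over 3 intact samples (SD). Contra sample 1 was the lowest of all 7 and contra sample 5 the highest. The difference of 7.21 points was 0.643 within samples 1 and 2 and 11.6 within samples 4 and 5. It was 2.51 points without contra sample 5 and 11.9 without contra sample 1. edgeR called none of 33 member models, where 0% of all models were called. It gave 1 at an unadjusted p under 0.05, higher in contra, where 2.8% of all models were, and none lower, where 2.25% were. DESeq2 also called none, where it called 0.134% of all models, and gave 1 at an unadjusted p under 0.05. In the edgeR fit 1 of the 33 was fitted lower in contra, where 49.3% of all models were, with a median log2 difference of 0.39 against 0.00 over all models. With same-numbered samples as a block, which also left out contra sample 5, the median was 0.03. Without that block the median was 0.11 when contra sample 5 was left out, 0.26 when contra sample 4 was, 0.68 when contra sample 1 was and 0.61 when intact sample 4 was. Without the filter on low counts edgeR called KIF23 higher, where 1.07% of all models were called, at log2 0.62 ± 0.17 with an adjusted p of 0.0261; this gene was named after its value was seen.

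MKI67 was the erythroid member with an unadjusted p under 0.05. It stood at 0.815, 1.65, 1.23 and 1.59 CPM in contra, against 0.575, 0.786 and 0.6396 CPM in intact erythroid samples. Every contra sample lay above every intact sample, by CPM and after thinning to 10000 UMIs by share of cells. By share of cells as deposited the groups overlapped. edgeR fitted log2 0.86 ± 0.24 (SE), with an unadjusted p of 0.00607 and an adjusted p of 0.899. By CPM 2.21% of all models were likewise apart, and 2.89% by thinned share. The erythroid sums of MKI67 rest on 20 to 90 UMIs per sample.

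In T cells no difference between the groups was resolved. Cells with 5 or more members made up 14.6, 22.1, 24.98 and 25.4% of T cells in contra and 14.3, 25.5 and 33.4% in intact samples, or 21.8% ± 4.98 over 4 contra samples and 24.4% ± 9.64 over 3 intact samples (SD). Intact sample 4 was the highest of all and intact sample 1 the lowest. Median UMIs per T cell were 8663 to 12519 in contra and 12034 to 14787 in intact samples. The difference of -2.63 points was -1.52 within samples 1 and 2, -8.27 within samples 4 and 5, 1.89 without intact sample 4, -7.7 without intact sample 1 and -0.254 without contra sample 1. edgeR called none of 31 member models, where 0% of all models were called, and gave 0 at an unadjusted p under 0.05, where 0.649% of all models were lower and 0.879% higher. DESeq2 gave the same counts of 0 and called 0% of all models. With cells thinned to 10000 UMIs, which left out 14.8 to 62.7% of a sample, the difference turned to 7.41 points and the groups still overlapped. The median log2 difference was 0.05, and 0.63 without intact sample 4.

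B cells were the smallest class, with 411, 169, 146 and 117 cells in contra and 474, 409 and 175 in intact samples. Cells with 5 or more members made up 8.03, 12.4, 4.11 and 10.3% in contra and 8.23, 16.1 and 7.43% in intact samples, or 8.71% ± 3.55 over 4 contra samples and 10.6% ± 4.81 over 3 intact samples (SD). The groups overlapped, and the difference of -1.89 points was -1.95 within samples 1 and 2, -0.246 within samples 4 and 5, 0.877 without intact sample 2, -0.361 without contra sample 4 and -3.48 without intact sample 4. Thinned to 10000 UMIs it turned to 4.65 points, with 32 contra sample 5 cells left. edgeR tested 18 member models, called none, where 0% of all models were called, gave 0 at an unadjusted p under 0.05, where 0.677% of all models were lower and 0.649% higher, and had a median log2 difference of 0.00. DESeq2 gave the same counts of 0 in B cells, where it called 0.0094% of all models. Over all kept cells together edgeR tested 36 member models, called none, where 0% of all models were called, and gave 0 at an unadjusted p under 0.05, where 1.27% of all models were lower and 1.3% higher. Over all kept cells DESeq2 gave the same counts of 0, where it called 0.0428% of all models. The median there was -0.08, 0.08 without contra sample 1 and 0.14 without intact sample 4.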

How the data were processed

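Limb cells were profiled with the 10x Genomics 3' v3.1 kit, per the labels' protocols. The authors deposited unique molecular identifier (UMI) counts per gene model and cell. The submitters' processing notes name kallisto 0.48.0 and Seurat 4.2.0, while the genome build was not given in the sources used here, nor were cell filters. No cell of the matrix fell under 3003 UMIs or 1000 genes or exceeded 19.9963% mitochondrial UMIs. Of 35013 cells, 439 (1.25%) with a Scrublet score (scanpy 1.11.5, run per sample) over 0.25 were removed.

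Cells were called erythroid with at least 30% haemoglobin UMIs, epidermal with at least 1% epidermal marker UMIs, and T or B with at least 5 UMIs of at least 2 markers. Non-erythroid classes held at most 10% haemoglobin, and 544 cells past the limits of more than 1 class and all others in no class, 2134 in all, were left out of class results. The counts were summed per sample and class and tested two-sided with edgeR 4.0.16 in R 4.3.3 (TMM, filterByExpr, quasi-likelihood, Benjamini-Hochberg over all models tested), with DESeq2 1.42.0 as an alternative. Only classes of at least 20 cells in a sample entered the fit between classes. On simulated counts, 50 to 64% of genes changed by 1 on the log2 scale and 97 to 100% of those changed by 2 were recovered, over the 4 class fits. Each class fit also made 7 to 16 false calls. Changes smaller than 1 are not covered by these rates. Thinning drew each cell's UMIs without replacement with a fixed seed.

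Same-numbered contra and intact samples deviated together, with correlations of 0.522, 0.286 and 0.627 for numbers 1, 2 and 4 over all cells, 0.213, 0.127 and 0.143 in erythroid, 0.432, 0.570 and 0.312 in T and 0.292, 0.357 and 0.109 in epidermal cells. In B cells that of number 4 was -0.111. The pairing is thus read from the data, since no label states what the numbers share.

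The members and the gene lists were chosen with earlier results of these data known. Sample values are given for the 2 genes with the most UMIs in each role group and for every member with an unadjusted p under 0.05 in a class, and of each other list for the 3 genes with the most UMIs and any called. Alternatives changed the tool, filter, block, samples, haemoglobin, gene models, doublets and marker limits. No sequence or genome position is given.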

Additional observations from a re-analysis of the deposited data

Results flagged for a closer look

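In 3 of 92 groups of 4 contra samples, 1 sample of a member's CPM stood far from the others, and chance gives about 1 in 20 such groups. All 3 were in B cells, the class with the fewest cells. MKI67 stood at 8.54, 16.5, 8.505 and 8.52 CPM in contra B cells, so that the gap of contra sample 2 was 0.996 of the whole range, and at 7.28, 9.64 and 8.004 CPM in intact B cells. KIF11 stood at 3.98, 3.78, 2.62 and 11.4 CPM in contra B cells, with a gap of 0.844 of the range at contra sample 5. NDC80 stood at 3.42, 2.84, 2.62 and 9.47 CPM in contra B cells, with a gap of 0.883 of the range, again at contra sample 5.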

How the results depend on the processing

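Under the alternative settings, 473 values of the results stayed close to the main value and 27 moved. Close meant a count of similar size, or a value within 1 between-sample SD of the main one. The 473 include counts of called genes that were 0 in the main fit and stayed 0. That total is thus not a measure of how stable the results are. For contra minus intact differences the sign was not checked, and some changed sign. The T-cell difference in cells with 5 or more members ran from -7.7 to 1.89 points when 1 sample was left out. Of single named members, 234 values stayed above the adjusted threshold, where all stood in the main fit, 4 passed it and none reversed. The unadjusted edgeR p under 0.05 by which they were picked did not always hold. It held in 8 of 14 alternatives for BUB1B and TTK, 9 for AURKA and 12 for TPX2. For the other named models it held in 13 or 14. Without the filter on low counts edgeR called 1 member in erythroid cells, and 4 members and 2 other mitosis genes in epidermal cells. The replicate block paired same-numbered samples and left out contra sample 5. With it edgeR called 1 other mitosis gene and 3 replication genes in epidermal cells and changed no member's call. The median share of cells with a UMI of a member, 10.5% in erythroid, 11.5% in T, 4.39% in B and 10.6% in epidermal cells as deposited, was 1.62, 1.07, 0.354 and 0.669% after thinning to 1000 non-haemoglobin UMIs and 1.22, 2.73, 1.00 and 1.69% after thinning to 3000 UMIs. The contra minus intact difference in cells with 5 or more members was 7.41 points in T, 4.65 in B and -8.74 in epidermal cells after thinning to 10000 UMIs, and in epidermal cells -10.1 for 10 or more members and -2.28 after thinning to 3000 UMIs. Leaving out 1 sample, the epidermal difference ran from -19.8 to -16.0 and the epidermal median log2 difference from -0.90 to -0.47. Between classes, no filter gave 1 member lower in erythroid than in epidermal cells, 0 lower in T than in B cells and 19 lower in B than in epidermal cells. The shares of all models called between classes without the filter are not given here. Doubled marker limits gave 0 lower in T than in B cells, and leaving out 1 sample gave 0 to 1. The cause of these shifts was not tested. The fits without a filter held a larger number of models, and thinning left fewer UMIs. Doubled marker limits do not apply to the fit over all cells. Few UMIs, 165 of CCNB1 and 88 of BIRC5 over all kept cells, limit what can be read of these genes. Why they were scarce was not tested. The B-cell fit tested 18 member models only.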
